A study of Homo sapiens with 36 samples.

Results

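Atorvastatin added to all-trans retinoic acid (ATRA) was compared with ATRA given without the statin at 24 h in NB4 cells. The comparison rests on 6 of the 36 arrays of the study, which were chosen by the treatments and the time in their titles. The combination group holds 3 arrays (exp.n 20, 32 and 44) and the ATRA group holds 3 (exp.n 18, 30 and 42), where exp.n is the running number of an array in its title. Every named gene that passed the signal filter was tested, 15308 in all. The study treated NB4 cells with ATRA, atorvastatin, both agents or neither for 8, 24 or 48 h, with 3 arrays in each of the 12 groups. ATRA was given for 1 h before atorvastatin, and the doses are not given in the sources used here. Each group was repeated in 3 independent experiments, done on separate days by the series text, and an array was placed in its experiment by its running number.

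The NB4 line was established from human acute promyelocytic leukaemia and makes the PML-RARA fusion protein, whose block of granulocyte differentiation ATRA releases. All arrays come from this 1 line, so they are repeats of the same cells and not of patients. Atorvastatin blocks the synthesis of mevalonate. Mevalonate feeds cholesterol synthesis and also supplies the prenyl groups that anchor small GTPases such as Rap and Ras to membranes. When sterols run low, the SREBP2 transcription factor raises the genes of sterol synthesis and uptake, and when oxysterols are high, LXR receptors raise exporters such as ABCA1. In endothelial cells statins are known to raise KLF2 and its target THBD.

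The cells matched their label by several promyelocyte genes. On exp.n 30 MPO, PRTN3, AZU1, CTSG, MS4A3 and MYB each had a signal above that of at least 96.1% of the probes. ELANE, the neutrophil elastase gene, lay near background on the 6 arrays compared (6.41 to 6.76). Values are normalised log2 signals, with a median over probes of 6.34 and a 90th percentile of 8.59, and log2 changes of genes near 6.34 come out too small. Raw median intensities of the 6 arrays were between 89.4 and 118.2. In experiment 1 the arrays titled without ATRA had raw medians from 152.2 to 185.4, and those titled with ATRA from 101.8 to 118.2. In experiments 2 and 3 the raw medians ran from 78.5 to 100.8. The number of arrays limits the precision of every value.

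The ATRA array exp.n 18 stood apart from the other 2 of its group. ASB2, which encodes a subunit of a ubiquitin ligase and responds to retinoids, had a signal of 6.71 on exp.n 18 and of 10.69 and 10.50 on exp.n 30 and 42. The retinaldehyde reductase gene DHRS3 had 7.08 there against 10.35 and 10.52. Both genes thus lay just under the range of the 3 control arrays (6.77 to 7.21 for ASB2 and 7.21 to 7.50 for DHRS3). CD38, a surface enzyme that retinoids raise, had 9.38 on exp.n 18 against 11.68 and 11.92. TSC22D3 had 11.23 there against 9.03 and 9.14, near the 11.32 and 11.49 of the atorvastatin arrays exp.n 31 and 43. Across the 15308 genes exp.n 18 had a Pearson r of 0.9882 and 0.983 with the atorvastatin arrays exp.n 31 and 43 and of 0.9846 to 0.988 with the 3 control arrays. With the ATRA arrays exp.n 30 and 42 it had 0.9767 and 0.974, while exp.n 30 and 42 had 0.9904 with each other. The atorvastatin array exp.n 19 of the same experiment had 10.70 for ASB2 and 9.01 for TSC22D3. By raw median intensity, exp.n 18 (118.2) and exp.n 19 (178.9) each lay in the experiment 1 range of arrays with the same ATRA title. The cause of these differences was not tested, and neither array was relabelled. The counts over all genes and the change of each called gene are given with all 36 arrays as labelled and without exp.n 18 and 19, where the ATRA mean is that of exp.n 30 and 42.

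With all 36 arrays 2 genes passed an adjusted p of 0.05 in limma, ADGRE5 and PLAU, both higher with the combination. That is 0.0131% of the 15308 genes, and 637 genes had an unadjusted p under 0.05. Without exp.n 18 and 19 33 genes passed (0.216%), 31 of them higher (0.203%) and 2 lower (0.0131%), and 14 changed by at least 1 log2 unit. With all 36 arrays 31 of these 33 did not pass, with adjusted p values from 0.0541 to 1, and the change of 17 was more than 1.5 times smaller. In the fit without exp.n 18 and 19 616 genes had an unadjusted p under 0.05. Leaving out exp.n 18 alone gave 9 genes. With the experiment as a block, which the pairing of the arrays allows, the count with all 36 arrays was 7, and without exp.n 18 and 19 it was 42. The 36-array count was 1 without exp.n 30 or without exp.n 20. The count of 33 fell to 7 and 8 when exp.n 30 or exp.n 42 was left out as well, which leaves 1 ATRA array whose spread is taken from the other groups. It was 17 without exp.n 20 and 18 without exp.n 44. Unless all 36 arrays are named, the changes below are combination minus ATRA without exp.n 18 and 19, as log2 difference ± SE with n = 3 and n = 2 arrays and an adjusted p from limma. Counts of list members that rose or fell stand against 0.203% and 0.0131% of all genes.

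**Figure D1:**
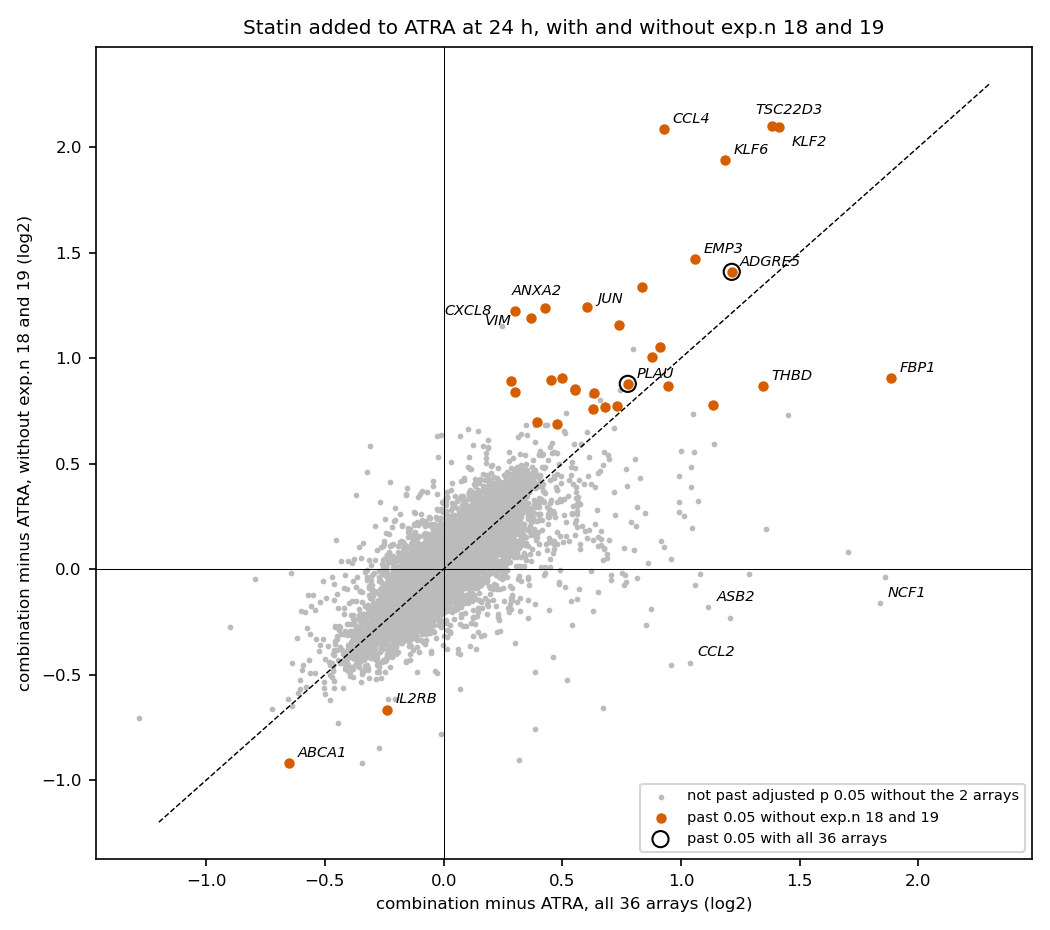
Change of each of 15308 genes (points) at 24 h, combination minus ATRA in log2 units, with all 36 arrays (x axis) and without exp.n 18 and 19 (y axis), with the line of equal change dashed. The 33 genes past the threshold without those arrays are orange, the 2 past it with all arrays are circled, and 29 of the 33 changed by less with all arrays.

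The array exp.n 18 lay above both other ATRA arrays in 27 of the 31 genes that rose, and below both in the other 4, FBP1, THBD, ITGAM and RETREG1. It lay at or above the lowest combination array in 19 of the 31. The 3 combination arrays lay above exp.n 30 and 42 in all 31 genes, as they did in 1937 of all genes (12.7%). They lay above all 3 ATRA arrays in 12 of the 31, against 919 of all genes (6%). For the 2 genes that fell the 3 combination arrays lay below exp.n 30 and 42 in both, as in 1674 of all genes (10.9%), and below all 3 ATRA arrays in 1, ABCA1, as in 801 of all genes (5.23%). Since non-overlap goes into passing the test, these counts describe the called genes and give them no further support. Within experiments 2 and 3 all 33 genes differed in the direction of their fitted change, which follows from that non-overlap and adds no support either. Within experiment 1, where exp.n 18 is the ATRA array, 19 of the 33 differed the opposite way. CCL4, VIM and ANXA2 were among these 19, lower on exp.n 20 than on exp.n 18. KLF2, KLF6, TSC22D3 and ADGRE5 kept their call under all 16 alternatives run on the fit without exp.n 18 and 19.

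**Figure D2:**
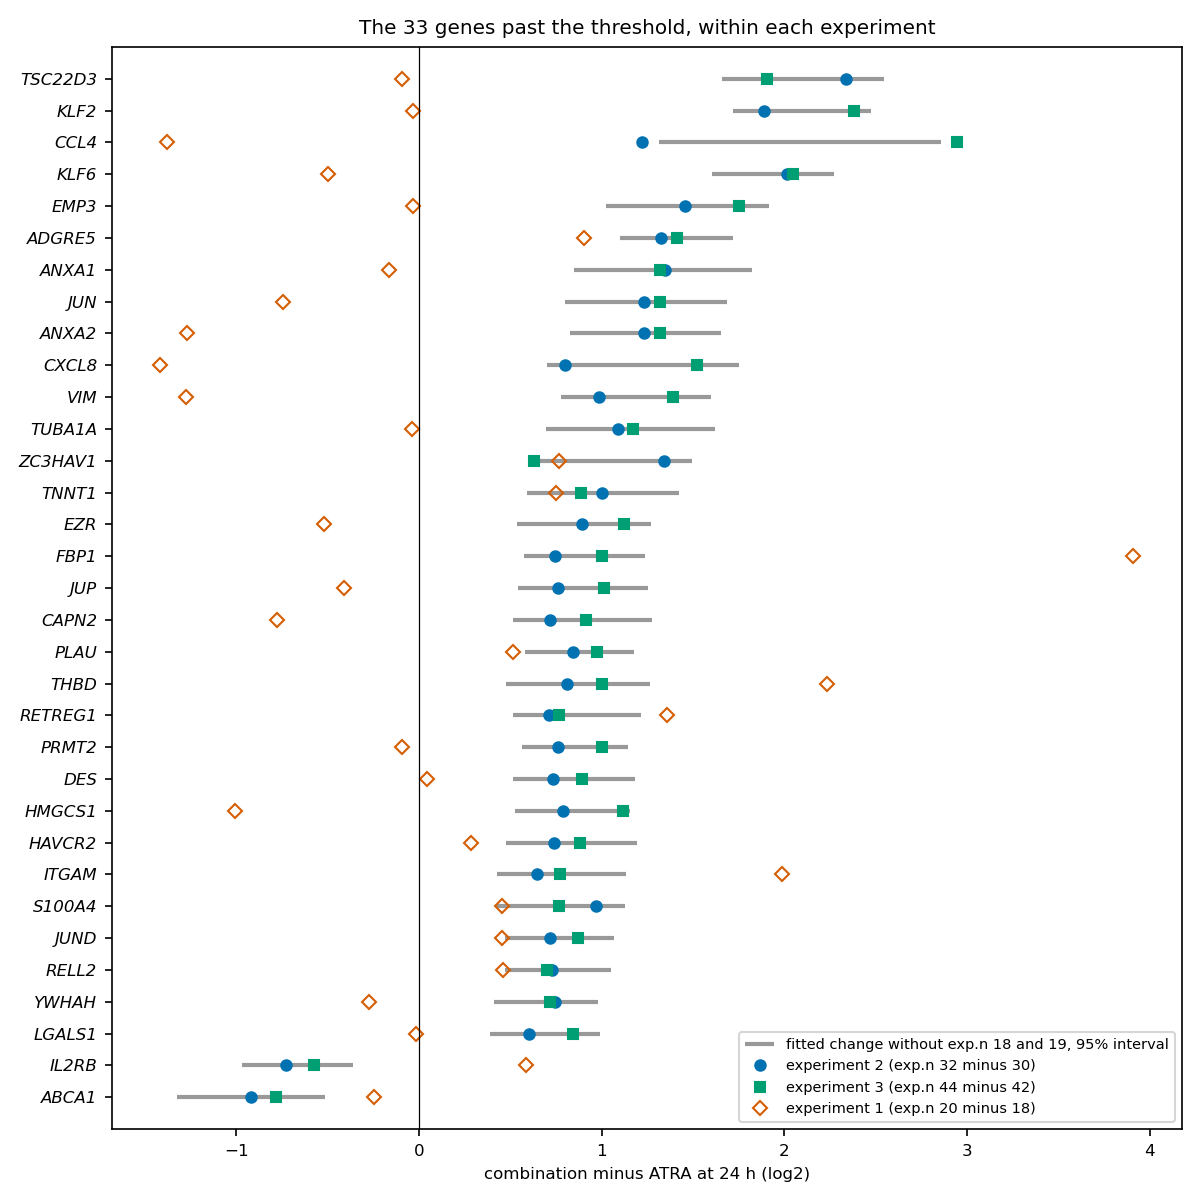
Difference between the combination and the ATRA array in log2 units (x axis) within each experiment, for the 33 genes past the threshold without exp.n 18 and 19 (rows). Grey lines are 95% intervals of the fitted change, and open diamonds mark experiment 1, whose ATRA array is exp.n 18 and which differed the opposite way in 19 of the 33 genes.

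Transcription factors were among the genes that changed most. KLF6, a Kruppel-like factor induced early by many stimuli, had log2 signals of 8.30, 8.52 and 8.62 on the combination arrays exp.n 20, 32 and 44, and of 6.51 and 6.58 on exp.n 30 and 42. On exp.n 18 it had 8.79, above all 3 combination arrays. KLF6 rose by 1.94 ± 0.16, or 3.83-fold (adjusted p = 3.23e-09), and the change with all 36 arrays was 1.19 (adjusted p = 0.908). KLF2, which keeps endothelial cells and resting lymphocytes quiescent, had 8.48, 8.38 and 8.83 with the combination. The ATRA arrays lay near background, at 6.49 and 6.44, while exp.n 18 had 8.51, within the range of the combination. KLF2 rose by 2.10 ± 0.19, or 4.27-fold (adjusted p = 5.39e-09), against 1.41 with all arrays (adjusted p = 0.499). The AP-1 subunit gene JUN had 7.52, 7.49 and 7.74 with the combination, 6.26 and 6.42 on the ATRA arrays and 8.26 on exp.n 18. JUN rose by 1.24 ± 0.22 (adjusted p = 0.00348), and with all arrays the change was 0.60. JUND, another AP-1 subunit, had 12.85, 12.95 and 12.90 with the combination against 12.24 and 12.03. Its 3 combination arrays also lay above exp.n 18 (12.40), so the change was alike with all arrays (0.68, adjusted p = 0.0541) and without exp.n 18 and 19 (0.77 ± 0.15, adjusted p = 0.00964).

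Of the 19 measured genes in a list of Kruppel-like and immediate early transcription factors these 4 rose and 0 fell, against 0.203% higher over all genes, and 0 passed with all 36 arrays. The list's median change was 0.07, against 0.00 over all genes, so most of its members lay near no change. EGR1, an immediate early factor, had 7.10, 7.19 and 7.41 with the combination against 7.37 and 7.23, a difference of -0.07 that did not pass. The 4 genes that rose are followed by the 250 bases upstream of their start in RefSeq (GRCh38.p14), 5′ to 3′ on the strand of the gene, shown because these genes moved together. Capitals mark matches on either strand to a MEF2 motif (CTA, any 4 bases, TAG) or to TGACNTCA, a motif like the cAMP response element.
KLF2 (chr19:16324576-16324825, plus strand): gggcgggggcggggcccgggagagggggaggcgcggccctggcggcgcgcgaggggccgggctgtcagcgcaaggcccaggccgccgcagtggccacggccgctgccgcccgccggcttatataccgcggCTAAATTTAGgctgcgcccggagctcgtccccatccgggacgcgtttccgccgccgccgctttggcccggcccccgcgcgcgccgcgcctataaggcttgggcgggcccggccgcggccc
KLF6 (chr10:3785210-3785459, minus strand): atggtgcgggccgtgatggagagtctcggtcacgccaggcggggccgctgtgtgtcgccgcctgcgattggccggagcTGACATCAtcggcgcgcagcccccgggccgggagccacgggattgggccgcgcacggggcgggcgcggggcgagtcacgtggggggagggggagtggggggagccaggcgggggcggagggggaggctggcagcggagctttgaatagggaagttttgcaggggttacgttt
JUN (chr1:58784048-58784297, minus strand): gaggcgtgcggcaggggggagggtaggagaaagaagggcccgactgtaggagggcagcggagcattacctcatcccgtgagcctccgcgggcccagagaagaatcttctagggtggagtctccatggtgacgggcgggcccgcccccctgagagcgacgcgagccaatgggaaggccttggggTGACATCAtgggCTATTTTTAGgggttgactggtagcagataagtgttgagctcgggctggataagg
JUND (chr19:18281623-18281872, minus strand): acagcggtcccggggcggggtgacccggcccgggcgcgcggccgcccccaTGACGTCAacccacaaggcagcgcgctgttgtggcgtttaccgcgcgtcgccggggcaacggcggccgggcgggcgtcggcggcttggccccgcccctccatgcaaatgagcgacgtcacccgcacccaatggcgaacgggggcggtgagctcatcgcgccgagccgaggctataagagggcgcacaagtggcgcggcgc
The MEF2 letters stand 120 to 111 bases upstream in KLF2 and 55 to 46 in JUN, and 827 of 35116 promoters of the same length (2.36%) hold them. The letters like the cAMP response element stand 172 to 165 bases upstream in KLF6, 67 to 60 in JUN and 200 to 193 in JUND, and 2413 promoters (6.87%) hold them. The 35116 promoters were not limited to the genes tested, so these shares come from a wider set than the gene counts that follow. Of the 33 called genes 26 matched a RefSeq promoter by symbol, and 3 of these held the first motif (JUN, KLF2 and YWHAH) and 4 the other (JUN, JUND, KLF6 and YWHAH). Of the transcription factor list 16 genes matched, and 4 held the first motif (JUN, KLF11, KLF2 and ZFP36). The other was held by 6 of the 16 (ATF3, DUSP1, JUN, JUND, KLF11 and KLF6). KLF11, ZFP36, ATF3 and DUSP1 were not called, so the motifs were not particular to the genes that rose. In JUN the matches do not overlap. A match of letters is a description of the sequence and shows no binding.

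TSC22D3, a glucocorticoid-induced regulator of inflammatory signalling, had 11.14, 11.37 and 11.04 with the combination. The ATRA arrays had 9.03 and 9.14, below every combination array, and exp.n 18 had 11.23, among them. TSC22D3 rose by 2.10 ± 0.22, or 4.29-fold (adjusted p = 2.04e-07), and with all arrays the change was 1.38. The gene has 2 other probes, near background, which gave changes from -0.01 to 0.27.

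ADGRE5, the adhesion receptor CD97 of leukocytes, had signals of 12.54, 12.46 and 12.40 on the combination arrays. It had 11.14 and 10.98 on exp.n 30 and 42 and 11.64 on exp.n 18, so the groups did not overlap with any choice of ATRA arrays. ADGRE5 rose by 1.41 ± 0.15, or 2.66-fold (adjusted p = 3.93e-07), and by 1.21 ± 0.15 with all 36 arrays (adjusted p = 3.21e-05). Its other probe, near background at 6.46, gave 0.26. ITGAM, the integrin chain CD11b of mature granulocytes, had 8.92, 8.59 and 8.85 with the combination against 7.94 and 8.08. It was lower still on exp.n 18 (6.94). ITGAM rose by 0.78 ± 0.17 (adjusted p = 0.0416), and the change with all arrays was 1.14 (adjusted p = 0.107). HAVCR2, the checkpoint receptor TIM-3, had 7.53, 7.27 and 7.64 against 6.53 and 6.76, with 7.25 on exp.n 18, and rose by 0.83 ± 0.18 (adjusted p = 0.0216), against a change of 0.63 with all arrays. EMP3, a membrane protein of the PMP22 family, had 12.75, 12.96 and 13.36 against 11.50 and 11.61, and exp.n 18 had 12.78, inside the range of the combination. EMP3 rose by 1.47 ± 0.22 (adjusted p = 0.000396), and the change with all arrays was 1.06. IL2RB, the interleukin-2 receptor beta chain, had 7.74, 7.80 and 7.78 against 8.52 and 8.36. It fell by 0.67 on the log2 scale (adjusted p = 0.0416), although exp.n 18 had 7.16, below every combination array, and the change with all arrays was -0.24. Its call was kept under 6 of the 16 alternatives, and median scaling called 30 genes higher and 0 lower. Of 17 measured adhesion receptors and integrins 2 rose, ADGRE5 and ITGAM, and 0 fell, against 0.203% higher over all genes, with a median change of 0.09. The 36-array fit called 1 of them, with a median of 0.16.

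**Figure D3:**
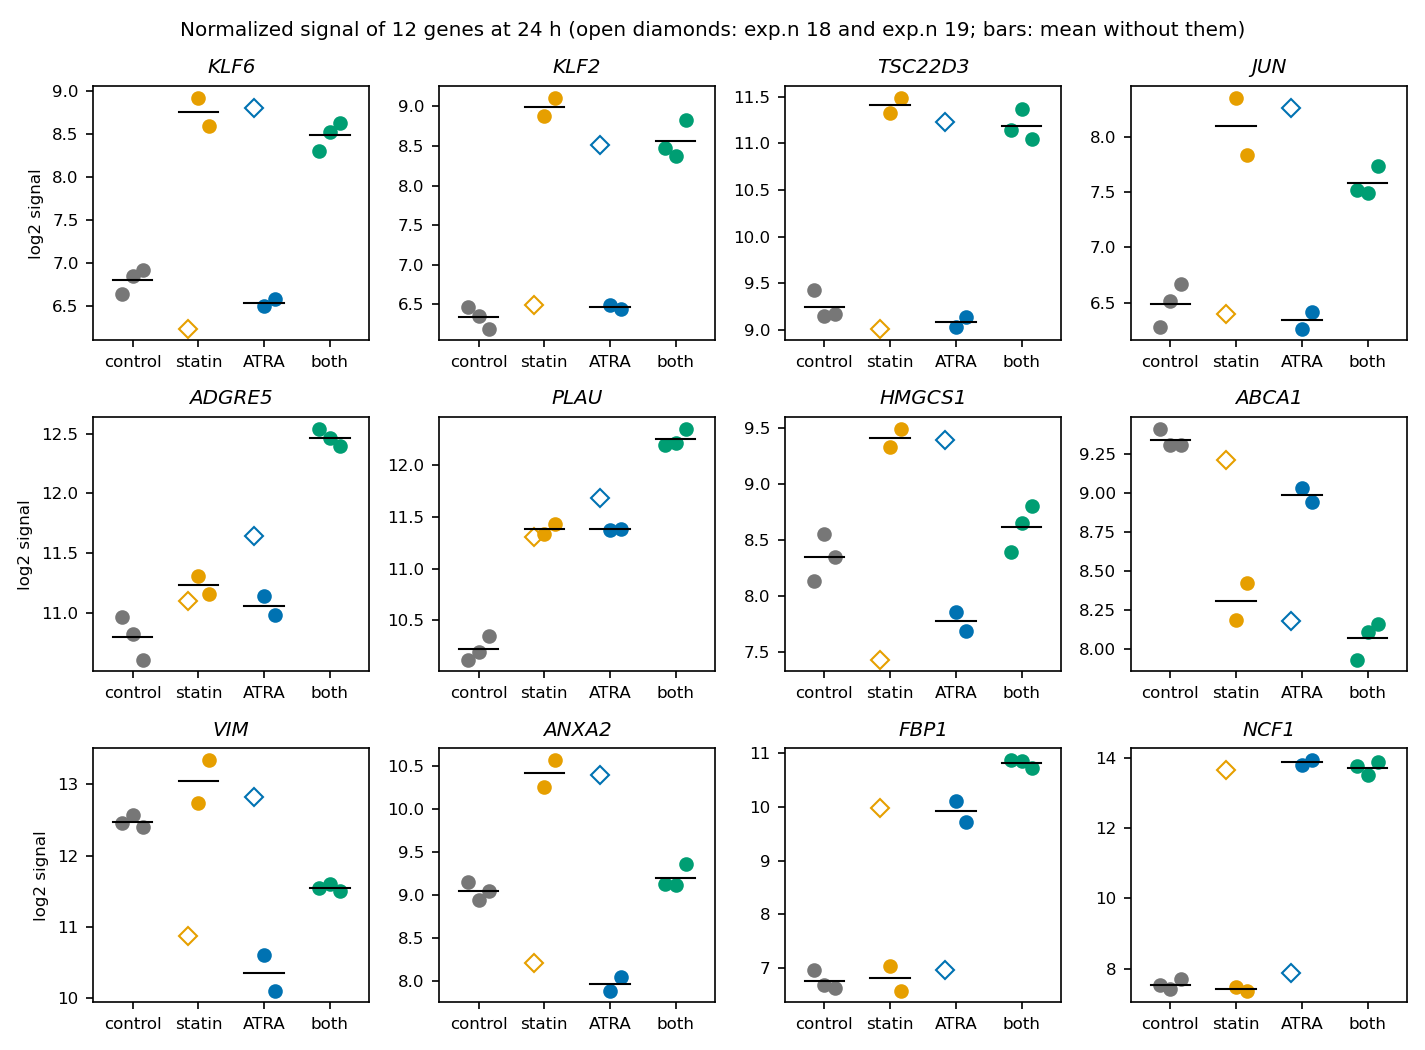
Normalised log2 signal (y axis) of 12 genes on the 12 arrays of 24 h, by treatment (x axis), 1 point per array, with the means without exp.n 18 and 19 as black bars and those 2 arrays as open diamonds. In KLF6 the combination arrays sit at 8.30 to 8.62 and the other 2 ATRA arrays at 6.51 and 6.58, with exp.n 18 at 8.79, while in ADGRE5 all 3 combination arrays sit above every other array.

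In a list of coagulation and fibrinolysis 3 genes rose. PLAU, the urokinase that activates plasminogen, had 12.20, 12.22 and 12.36 with the combination, 11.38 and 11.38 on exp.n 30 and 42, and 11.69 on exp.n 18. The groups did not overlap with or without exp.n 18. PLAU rose by 0.88 ± 0.15, or 1.84-fold (adjusted p = 0.00207), and by 0.78 ± 0.13 with all arrays (adjusted p = 0.0118). THBD, thrombomodulin, which turns thrombin toward protein C, had 11.82, 11.91 and 11.94 against 11.11 and 10.94. Exp.n 18 was lower at 9.58. THBD rose by 0.87 ± 0.19 (adjusted p = 0.0416), and the change with all arrays was 1.35 (adjusted p = 0.135). ANXA2, which holds plasminogen and its activator at the cell surface, had 9.13, 9.11 and 9.36 against 7.88 and 8.05. On exp.n 18 it had 10.40, above all 3 combination arrays. ANXA2 rose by 1.24 ± 0.20, or 2.36-fold (adjusted p = 0.00192), and the change with all arrays was 0.43. Of 11 measured genes in the list 3 rose and 0 fell, against 0.203% higher over all genes, with a median change of 0.32. The 36-array fit called 1 of them, with a median of 0.11, and 2 passed under median scaling or with the authors' deposited values. The call of PLAU was kept under 12 of the 16 alternatives, that of ANXA2 under 14 and that of THBD under 5.

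Annexins and S100 proteins bind calcium and membranes. ANXA1, which restrains inflammation, had 10.24, 10.26 and 10.21 with the combination against 8.91 and 8.89, and exp.n 18 had 10.40. ANXA1 rose by 1.34 ± 0.24 (adjusted p = 0.00438), and the change with all arrays was 0.83. S100A4 had 10.25, 10.53 and 10.54 against 9.56 and 9.77 and 9.80 on exp.n 18, so all 3 combination arrays lay above every ATRA array. It rose by 0.77 ± 0.17 (adjusted p = 0.0416), against 0.73 with all arrays (adjusted p = 0.107), and its other probe gave 1.00. Of 15 measured members 3 rose (ANXA1, ANXA2 and S100A4), against 0.203% higher over all genes, with a median change of 0.31. In the 36-array fit 0 passed and the median was 0.30. S100A8, a subunit of calprotectin, lay just outside the threshold. It had 8.16, 7.84 and 8.04 against 7.31 and 7.54, a difference of 0.59 ± 0.14 (adjusted p = 0.055). The beta-galactoside-binding lectin gene LGALS1 rose by 0.69 ± 0.15 (adjusted p = 0.0284), against 0.48 with all arrays. The calls of S100A4 and of LGALS1 were each kept under 6 of the 16 alternatives.

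VIM, the intermediate filament vimentin, had 11.54, 11.60 and 11.50 with the combination, between the 10.61 and 10.11 of the ATRA arrays and the 12.40 to 12.57 of the 3 control arrays. On exp.n 18 it had 12.82, above every combination array. VIM rose by 1.19 ± 0.20 (adjusted p = 0.00251), and the change with all arrays was 0.37. The tubulin gene TUBA1A had 12.82, 12.85 and 12.63 against 11.76 and 11.46, and 12.87 on exp.n 18, and it rose by 1.16 ± 0.23 (adjusted p = 0.0108), against 0.74 with all arrays. EZR, ezrin, which ties membranes to actin, rose by 0.91 ± 0.18 (adjusted p = 0.0126), from 10.57 and 10.78 to 11.37, 11.47 and 11.90, and the change with all arrays was 0.50. The calpain gene CAPN2 and the junction gene JUP rose by 0.89 ± 0.19 (adjusted p = 0.021) and 0.90 ± 0.17 (adjusted p = 0.0107). With all arrays their changes were 0.28 and 0.45. The other probe of JUP, near background, gave 0.06. DES, a muscle filament gene, and TNNT1, a muscle troponin, lay between 7.97 and 8.08 and between 7.21 and 7.59 with the combination. They rose by 0.85 ± 0.16 (adjusted p = 0.0102) and 1.01 ± 0.20 (adjusted p = 0.0147), and with all arrays the changes were 0.55 and 0.88. YWHAH, a 14-3-3 adaptor, rose by 0.69 ± 0.14 (adjusted p = 0.0127), against 0.39 with all arrays.

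Among chemokines, CCL4, which attracts monocytes and lymphocytes, had 8.67, 7.82 and 9.51 with the combination. The ATRA arrays lay near background at 6.60 and 6.56, and exp.n 18 had 10.05, above all 3. CCL4 rose by 2.09 ± 0.38 (adjusted p = 0.00479), and the change with all arrays was 0.93 (adjusted p = 1). The neutrophil attractant gene CXCL8 had 11.17, 10.67 and 11.26 against 9.88 and 9.74, with 12.58 on exp.n 18. CXCL8 rose by 1.23 ± 0.26 (adjusted p = 0.0216), and the change with all arrays was 0.30. Its call was kept under 7 of the 16 alternatives. Of 25 measured chemokines and inflammatory cytokines these 2 rose and 0 fell, against 0.203% higher over all genes, with a median change of 0.10. In the 36-array fit 0 passed and the median was 0.01, and under median scaling 1 passed. CCL3L1 had 7.55, 7.29 and 7.80 against 6.35 and 6.43, a difference of 1.15 ± 0.27 that lay just outside the threshold (adjusted p = 0.0572), and it shares sequence with CCL3. With all 36 arrays the difference of CCL3L1 was 0.24. CCL2, a monocyte chemokine whose control arrays had 7.86 to 8.26, had 12.04, 12.12 and 12.37 against 12.52 and 12.72, a difference of -0.44 (adjusted p = 0.999). With all 36 arrays the difference of CCL2 had the opposite sign, 1.04. IL1B lay near background in both groups, between 6.52 and 6.72 on the combination arrays.

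The mevalonate pathway is the direct target of the statin. HMGCS1, which makes HMG-CoA, had 8.39, 8.65 and 8.80 with the combination and 7.86 and 7.68 on exp.n 30 and 42. On exp.n 18 it had 9.39, above all 3 combination arrays. HMGCS1 rose by 0.84 ± 0.15, or 1.79-fold (adjusted p = 0.00546), and the change with all arrays was 0.30. With both agents its level lay near the 8.14 to 8.55 of the control arrays. Of the 17 measured genes of mevalonate and sterol synthesis only HMGCS1 passed. The changes of all 17 were positive, from 0.03 to 0.84 with a median of 0.28, against 50.4% positive and a median of 0.00 over all genes. Under median scaling, which moved the median of all genes to 0.08, the list's median was 0.47. With all 36 arrays it was 0.12. SQLE, squalene epoxidase, had 9.52, 9.51 and 9.81 against 9.21 and 9.29, a difference of 0.37 that did not pass (adjusted p = 0.999). IDI1 had a difference of 0.22 and INSIG1, which retains SREBP in the endoplasmic reticulum, had 0.24, and neither passed.

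ABCA1, the exporter of cellular cholesterol, had 7.93, 8.11 and 8.16 with the combination and 9.03 and 8.94 on exp.n 30 and 42. On exp.n 18 it had 8.18, just above the combination. ABCA1 fell by 0.92 on the log2 scale to 0.53 of the ATRA level (adjusted p = 0.0284), and the change with all arrays was -0.65 (adjusted p = 0.886). Its call was kept under 6 of the 16 alternatives. It was the only member that passed among 8 measured genes of cholesterol efflux and LXR targets, whose median change was -0.06, or 0.05 under median scaling. Of 8 measured genes of SREBP regulation and sterol uptake 0 passed, with SREBF2, which encodes SREBP2, at 0.55 (adjusted p = 0.659) and NPC1, a lysosomal cholesterol transporter, at 0.47 (adjusted p = 0.196). Of 12 genes of fatty acid synthesis 0 passed, with ELOVL6 at 0.26 and FASN at -0.24.

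No gene of the prenylation branch passed. Of 11 measured genes of prenyl transfer and supply 0 passed, with a median change of -0.02 that turned to 0.15 under median scaling. RHOC, a small GTPase gene, had 10.73, 10.49 and 10.59 against 9.70 and 9.86, a difference of 0.82 ± 0.20 (adjusted p = 0.0894). RHOA, whose protein drives actin contraction, had 12.63, 12.76 and 13.06 against 12.03 and 12.24, a difference of 0.68 ± 0.17 (adjusted p = 0.0988). Both groups of RHOA and of RHOC were separate without exp.n 18, which had 12.90 for RHOA and 10.39 for RHOC. RHOB had 6.32, 6.08 and 6.42 against 5.99 and 6.15, near background. Of 11 Ras, Rap and Ral genes 0 passed, with RRAS at 0.36 and RALA at 0.28.

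Of the remaining called genes FBP1, the gluconeogenic enzyme fructose-bisphosphatase, had 10.88, 10.86 and 10.73 with the combination. The ATRA arrays had 10.11 and 9.72, and exp.n 18 had 6.97, at the level of the control arrays. FBP1 rose by 0.90 ± 0.16 (adjusted p = 0.00438), and the change with all arrays was 1.89 (adjusted p = 0.36). RETREG1, a receptor for degradation of the endoplasmic reticulum, rose by 0.87 ± 0.17 (adjusted p = 0.0126), against 0.95 with all arrays (adjusted p = 0.0541). The arginine methyltransferase gene PRMT2 rose by 0.85 ± 0.14 (adjusted p = 0.00207) and RELL2 by 0.76 ± 0.14 (adjusted p = 0.00748), and with all arrays the changes were 0.56 and 0.63. ZC3HAV1, an antiviral zinc-finger protein, had 10.77, 10.98 and 10.16 against 9.64 and 9.53 and rose by 1.05 ± 0.22 (adjusted p = 0.0176), against 0.91 with all arrays (adjusted p = 0.0917). The gene has 2 other probes, the brighter at 8.38, which gave changes from -0.18 to 0.09, so its change depends on the probe. It was the only called gene among 25 measured interferon response genes, whose median was -0.04, or 0.08 under median scaling.

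The statin's effect on retinoid and granulocyte genes was read from 2 further lists. NCF1, a subunit of the phagocyte NADPH oxidase whose pseudogenes share its sequence, had 13.77, 13.52 and 13.87 with the combination, against 13.81 and 13.95. The difference was -0.16, with a 95% interval from -0.54 to 0.22. ASB2 differed by -0.18 (-0.53 to 0.18) and CD38 by -0.26 (-0.65 to 0.12). With all 36 arrays the differences of NCF1 and ASB2 were 1.84 and 1.11, which rest on exp.n 18. Of 19 measured genes of the retinoid response 0 passed, with a median change of 0.03, or 0.38 with all arrays. CYP26A1, the retinoic acid hydroxylase, lay near background. Of 28 granulocyte and oxidase genes 1 rose, ITGAM, with a median of -0.01 that turned to 0.14 under median scaling. Of 14 azurophil granule and promyelocyte genes 0 passed. The defensin genes DEFA1 and DEFA4 had the largest differences of that list, -0.76 and -0.66 (adjusted p = 0.249 and 0.245). With all 36 arrays the differences of DEFA1 and DEFA4 had the opposite sign, 0.39 and 0.67. In a list of monocytes and macrophages with 11 measured genes 0 passed, with FCER1G, an Fc receptor chain, at 0.80 (adjusted p = 0.244) and CSF1R at 0.32.

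Of 19 genes of MYC and ribosome biogenesis 0 passed, although 17 of the 19 changes were negative, with a median of -0.25 that stayed negative under median scaling (-0.10). MYC itself had 11.41, 11.78 and 11.35 against 11.90 and 11.72, a difference of -0.30 (adjusted p = 0.999), and NOP56 and PES1, ribosome assembly factors, had -0.48 and -0.44. Of 27 cell cycle genes 0 passed, with a median of -0.02, or 0.14 under median scaling, and CDK4 at -0.42 and CCND3 at 0.40. Of 8 CDK inhibitors and RB family genes 0 passed, with CDKN2D at 0.40 and CDKN1C at 0.37. CDKN1A, the inhibitor p21, had 7.97, 7.84 and 8.38 against 7.69 and 8.07. Of 19 apoptosis regulators 0 passed, with BBC3 at 0.42 and BCL2A1 at -0.41, and their median was 0.13. With all 36 arrays BBC3 was at 0.15 and BCL2A1 at 0.46, the opposite sign for BCL2A1. Of 20 genes of the integrated stress and unfolded protein response 0 passed, with HSPA5 at -0.45 and SLC7A11 at 0.40.

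Markers of other cell types were checked as whole lists. Of the lymphoid markers 11 of 14 were measured, and their mean level ran from 6.98 to 7.23 on the ATRA arrays and from 7.09 to 7.25 on the combination arrays. The erythroid and platelet markers (8 of 12 measured) had 6.35 to 6.39 and 6.21 to 6.34, and the epithelial and stromal markers (11 of 12) had 6.86 to 6.96 and 6.94 to 7.05. In each list 0 members passed. HBB, MS4A1 and KRT19 lay near background on all 24 h arrays, but several other members did not. On exp.n 30 CD79A had a signal above that of 93.4% of the probes, EPCAM above 87% and VWF above 85.6%. NKG7 and KRT18 had means of 8.35 and 8.95 over the combination arrays and exp.n 30 and 42. The T-cell gene CD3D had 9.37, 9.27 and 9.45 with the combination against 9.76 and 9.78 (adjusted p = 0.776). In these bulk samples fewer cells of a type and less RNA per cell cannot be told apart.

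**Figure D4:**
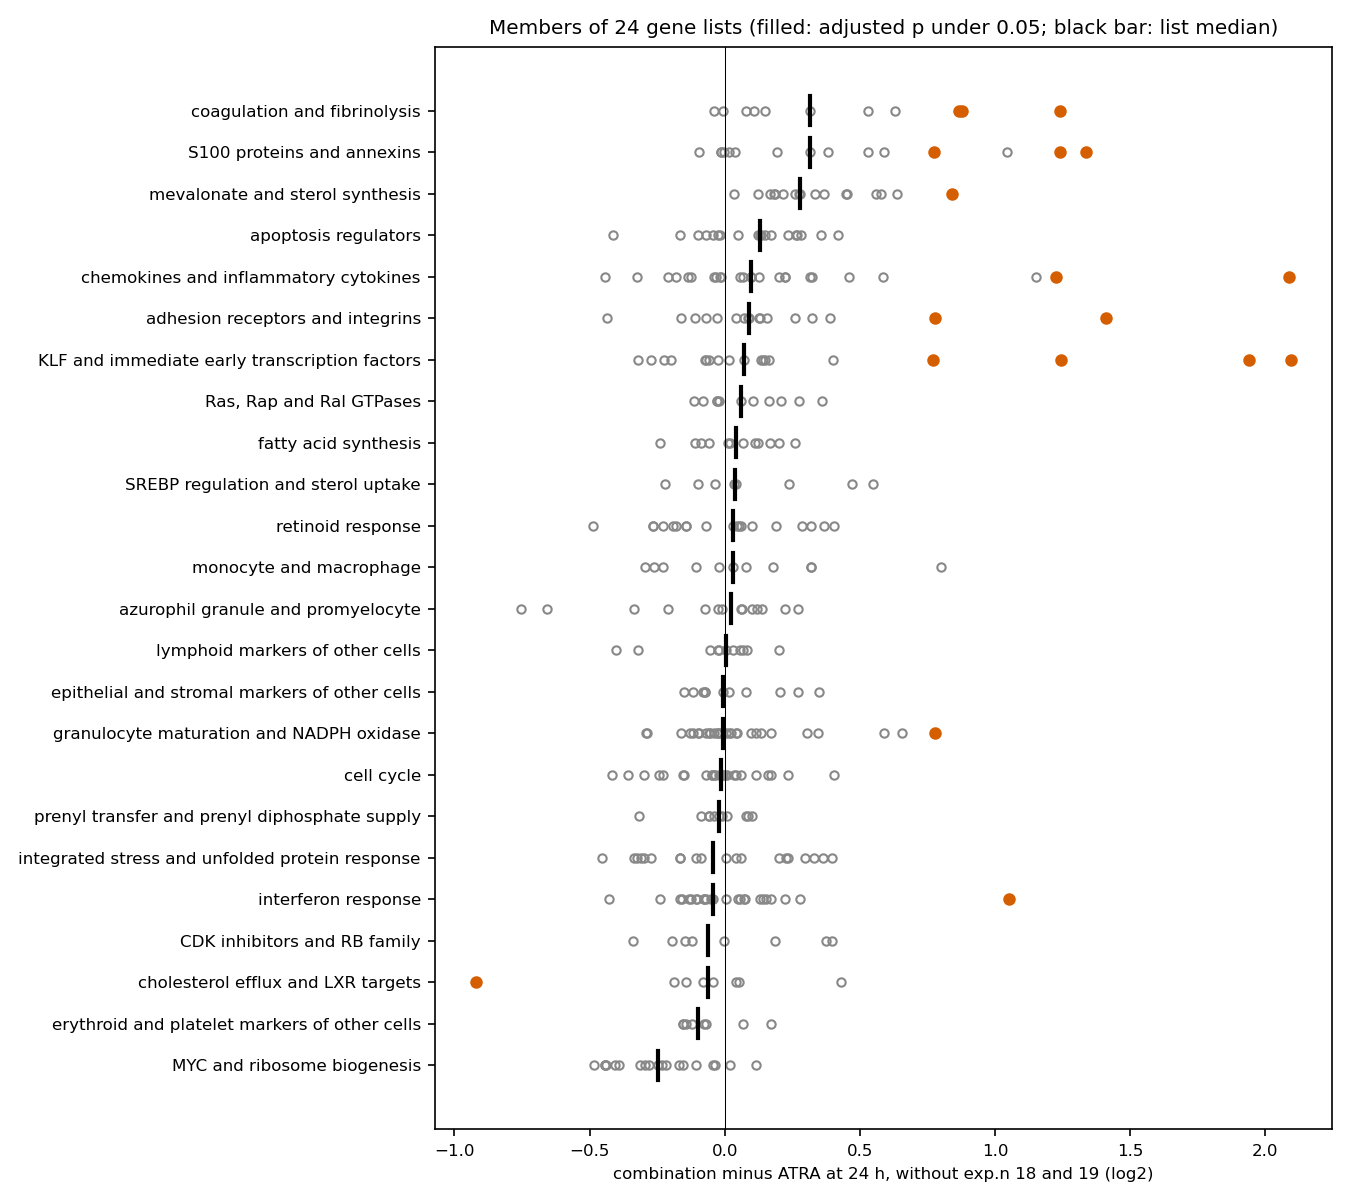
Change of each measured member (points) of 24 gene lists (rows) at 24 h, combination minus ATRA without exp.n 18 and 19, in log2 units (x axis), with the list median as a black bar and genes past the threshold filled. The list medians run from -0.25 for MYC and ribosome biogenesis to 0.32 for coagulation and fibrinolysis.

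The statin effect was also measured without ATRA, which asks whether the retinoid alters it. Without exp.n 18 and 19, atorvastatin against control at 24 h changed 50 genes (0.327%), a comparison that shares no array with the one above. Its atorvastatin arrays had raw median intensities of 99 and 93.7, and its control arrays 185.4, 99 and 94.9. Both comparisons take the spread of each gene from the same fit and were normalised together, so they are not independent tests. Of the 33 genes, 17 passed in both in the same direction, which is 51.5% of the 33 and 34% of the 50, and all 33 had the same sign. With all 36 arrays, where exp.n 19 is an atorvastatin array, atorvastatin against control changed 4 genes (0.0261%), and 1 gene, PLAU, passed in both comparisons. KLF6 rose by 1.95 with atorvastatin alone, TSC22D3 by 2.16 and KLF2 by 2.66, against 1.94, 2.10 and 2.10 on top of ATRA. CXCL8 rose by 2.92 without ATRA and by 1.23 with it, while ADGRE5 differed by 0.43 without ATRA (adjusted p = 0.419) and rose by 1.41 with it. FBP1 differed by 0.05 without ATRA (adjusted p = 0.989), and ITGAM by 0.20 (adjusted p = 0.891). The difference between the effects with and without ATRA passed in limma for 0 of 15308 genes, with 533 at an unadjusted p under 0.05, and for 0 (390) with all 36 arrays. For ADGRE5 that difference was 0.98 with a 95% interval from 0.54 to 1.41 (adjusted p = 0.543), and for CXCL8 it was -1.69 with an interval from -2.43 to -0.95 (adjusted p = 0.543). For KLF6 it was -0.02 with an interval from -0.49 to 0.46. No gene's statin effect is thus called different with ATRA, and a miss of the threshold does not show that the effects were alike.

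**Figure D5:**
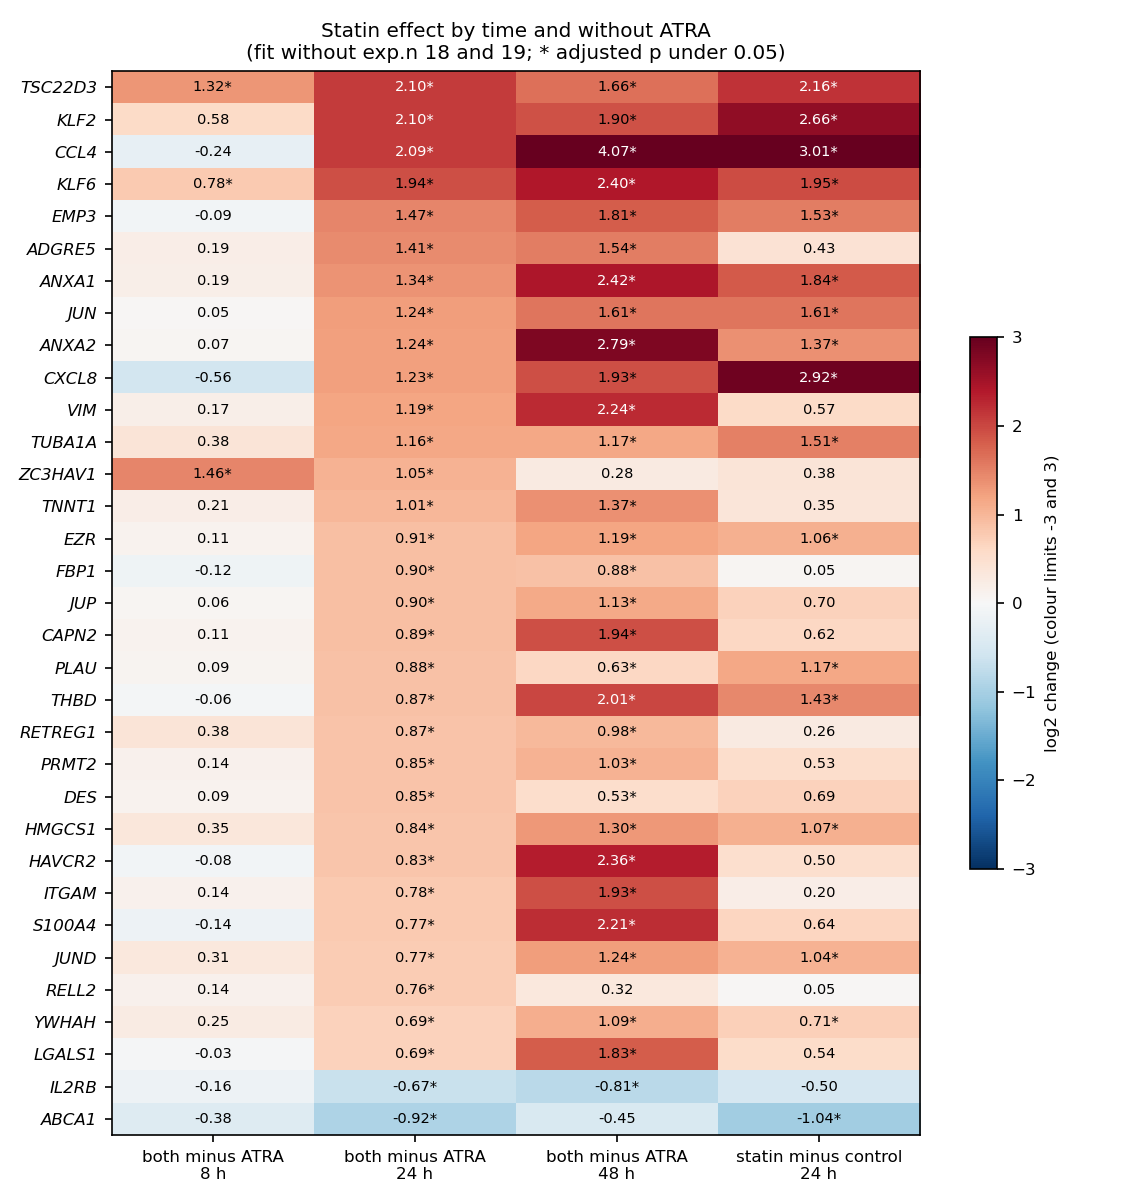
Log2 change of the 33 genes (rows) for the combination minus ATRA at 8, 24 and 48 h and for atorvastatin minus control at 24 h (columns), from the fit without exp.n 18 and 19, with an asterisk where the adjusted p was under 0.05. At 8 h 3 of the 33 carry an asterisk and at 48 h 30 do, in the direction of 24 h.

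At 8 h the combination differed from ATRA in 3 genes without exp.n 18 and 19 (0.0196%) and in 1 with all arrays (0.00653%). The 3 were TSC22D3, KLF6 and ZC3HAV1, all among the 33, with rises of 1.32, 0.78 and 1.46. KLF2 had 0.58 at 8 h (adjusted p = 1), and 25 of the 33 had the sign of 24 h. At 48 h 1162 genes differed (7.59%), and 979 with all arrays (6.4%). Of the 33 genes 30 passed at 48 h in the same direction, which is 90.9% of the 33 and 2.58% of the 1162. The 3 that did not were ZC3HAV1 (0.28), RELL2 (0.32) and ABCA1 (-0.45). The change was larger at 48 h in 25 of the 33. ANXA2 rose by 2.79 at 48 h, CCL4 by 4.07, S100A4 by 2.21 and ITGAM by 1.93.

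The difference between the statin effects on top of ATRA at 48 h and at 24 h passed for 115 genes (0.751%), 108 of them higher at 48 h (0.706%), and for 96 with all 36 arrays (0.627%). The count was 66 without exp.n 30, 62 without exp.n 42 and 73 without exp.n 32. Of the 33 called at 24 h 7 passed, ANXA2, CAPN2, HAVCR2, ITGAM, LGALS1, S100A4 and THBD. KLF2, KLF6 and TSC22D3 were not among them. Among sterol synthesis genes 7 of 17 rose at 48 h, against 4.1% of all genes, and 1 of 17 at 24 h. Among MYC and ribosome biogenesis genes 11 of 19 fell at 48 h, against 3.49% of all genes, and 0 of 19 at 24 h. The median change of the sterol list was 0.28 at 24 h and 0.49 at 48 h, and that of the MYC list -0.25 and -0.62. No member of either list passed the difference test, so these counts do not show that the effects differed between the times.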

How the data were processed

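Total RNA was hybridised to Illumina Sentrix Human-6 arrays. The deposited files hold an intensity per probe on a linear scale, which the authors averaged in BeadStudio 1.3.1.5 without background correction, per the labels' protocols. The authors' deposited table holds log2 values whose normalisation is not given in the sources used here, and it served as an alternative. The 47293 probes were corrected with normexp (offset 50) on the signals alone, for want of detection values here, and quantile normalised over 36 arrays in limma 3.58.1 (R 4.3.3). The filter kept a probe whose signal exceeded the array median 3 times or more. A gene symbol was given for 18468 probes and not for 28825, and a gene was represented by its brightest probe. A model of the 12 group means gave the contrasts, with two-sided tests and adjusted p values (Benjamini-Hochberg, 15308 genes) called at 0.05, with 24 residual degrees of freedom, or 22 without exp.n 18 and 19. The members and lists were chosen with earlier results of these data known. The text names every gene called with either set of arrays, up to 3 called members of each list in each direction or else its 2 largest changes, a set of retinoid, statin and granulocyte genes, and up to 5 genes of each difference test. The series text gives independent experiments on different days as the pairing: same-experiment ATRA and combination arrays had deviation correlations of 0.1959, 0.1493 and 0.4403. Promoters came from RefSeq (GRCh38.p14). Alternatives changed the background correction, scaling, source of values, filters, probe summary, arrays and block.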

Additional observations from a re-analysis of the deposited data

Results flagged for a closer look

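The statin effect on top of ATRA differed between 48 h and 24 h, by a test of the difference itself in limma without exp.n 18 and 19, for 115 genes. IL1B stood out, with a difference of 3.88 log2 units between a change of -0.01 at 24 h and 3.87 at 48 h. The chemokine genes CCL3, CXCL10 and CCL3L1 had differences of 2.98, 2.62 and 2.55, and the Fc receptor chain gene FCER1G had 2.54. Genes already called at 24 h were ANXA2 (1.56), HAVCR2 (1.53), S100A4 (1.44), ITGAM (1.15), LGALS1 (1.14), THBD (1.14) and CAPN2 (1.04), each larger at 48 h. BCL2A1 (1.28), S100A8 (1.21) and CD3D (0.84) were not called at 24 h. Outside the named genes, 2 probes with no gene name among 24421 tested passed at 24 h without exp.n 18 and 19, both higher with the combination and the larger by 1.19.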

How the results depend on the processing

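The count of 2 genes with all 36 arrays was 6 with median scaling, none of them ADGRE5 or PLAU, 1 with only the arrays of 24 h, 7 with the experiment as a replicate block, 1 to 9 when single arrays were left out (9 without exp.n 18), and 11, 0 and 1 without experiment 1, 2 and 3. The count of 33 without exp.n 18 and 19 was 24 to 42 under the other processing settings (24 with only the arrays of 24 h, 42 with the replicate block, which held all 33), 7 to 30 when a further array was left out, and 11, 4 and 10 without experiment 1, 2 and 3. Median scaling kept 24 of the 33 and the authors' values 28, and 0 of the 33 changed sign under any of these settings. The difference with against without ATRA gave 0 genes under every setting run. The count of 115 for 48 h against 24 h was 175 with the authors' values and 62 to 110 with single arrays left out, and 51, 4 and 68 without experiment 1, 2 and 3. The causes were not tested. The number of ATRA arrays, 2 without exp.n 18, limits the precision, and a change near background is compressed.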
